A study of Mus musculus with 4 samples.

Results

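The genes described here are those of acetylcholine signalling in the mouse hippocampus: the muscarinic receptor genes Chrm1 to Chrm5, the nicotinic receptor subunit genes Chrna4, Chrna5, Chrna7 and Chrnb2, and Ache, the gene of the enzyme that breaks acetylcholine down. They were taken by symbol, and all 10 were among the 32285 genes of the count tables of every library. Hippocampal nuclei of female mice were profiled by single-nucleus RNA sequencing after a 10-week wheel protocol that began at 8 weeks of age. Each group had 1 library: knock-in mice (APPNL-G-F) with exercise (APP-EX), knock-in mice without exercise (APP-noEX), wild-type mice with exercise (WT-EX) and wild-type mice without exercise (WT-noEX), all C57BL/6J per the labels. The knock-in alters the mouse's own App gene, with no added promoter, and how many animals went into a library is not stated in the labels. By title and treatment label 2 samples had no exercise, and groups were formed that way, although the protocol text mentions a wheel for all. With 1 library per group no difference has a replicate check, no test was made, and the values describe these libraries.

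Acetylcholine reaches the hippocampus mainly from neurons of the medial septum and diagonal band, whose axons contact pyramidal neurons, granule neurons and interneurons. The muscarinic receptors M1, M3 and M5 act through Gq and phospholipase C, and M2 and M4 through Gi, which lowers cyclic AMP and opens inwardly rectifying potassium channels. Nicotinic receptors are ion channels of 5 subunits. The subunits described here mainly form channels of alpha7 alone or of alpha4 and beta2 with or without alpha5. Acetylcholinesterase ends the signal in the synaptic cleft.

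The promoter of Ache is shown because this gene stood higher in APP-EX than in the other libraries in all 9 neuron classes, and that of Chrm3 because in CA1 and CA3 it did not. Those of Chrna7 and Chrnb2 stand for the homomeric and heteromeric nicotinic channels. Each is the RefSeq sequence of the 250 bases before a start listed for the gene on GRCm38.p6, 5′ to 3′ on the gene's strand. The capitals mark GC boxes, the letters GGGCGG on either strand, a motif bound by Sp1-family factors. For Chrna7 and Chrnb2 that start is also the start of the RefSeq gene. The Ache window lies within the gene span given below, which begins at 137287519. The Chrm3 window lies within the RefSeq gene, which begins at 10361062 on the minus strand. Ache (chr5:137288004-137288253, plus strand) held 4, Chrna7 (chr7:63212527-63212776, minus strand) held 1, and Chrnb2 (chr3:89764633-89764882, minus strand) and Chrm3 (chr13:10360804-10361053, minus strand) held 0. Of all 32851 promoters in the table, 32.7% held at least 1 GC box in this window. The GC content was 73.6% for Ache, 59.6% for Chrnb2, 67.2% for Chrna7 and 61.2% for Chrm3, against a median of 52.4% for all promoters. On either strand, none of these 4 windows held a TATA box (TATAAA), present in 12.4% of all promoters, a CCAAT box (the letters of its name), present in 33.9%, or the cyclic AMP response element (TGACGTCA), present in 1.55%.
Ache: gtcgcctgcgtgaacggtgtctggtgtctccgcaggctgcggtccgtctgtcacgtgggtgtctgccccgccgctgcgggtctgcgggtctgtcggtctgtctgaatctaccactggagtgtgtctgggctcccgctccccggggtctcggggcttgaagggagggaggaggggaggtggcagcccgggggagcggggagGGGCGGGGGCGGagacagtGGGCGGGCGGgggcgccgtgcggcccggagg
Chrnb2: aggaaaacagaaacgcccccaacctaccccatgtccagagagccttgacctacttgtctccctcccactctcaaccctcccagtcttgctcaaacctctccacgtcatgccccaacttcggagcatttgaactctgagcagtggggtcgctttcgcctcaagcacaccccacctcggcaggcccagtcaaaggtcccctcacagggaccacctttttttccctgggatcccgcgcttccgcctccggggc
Chrna7: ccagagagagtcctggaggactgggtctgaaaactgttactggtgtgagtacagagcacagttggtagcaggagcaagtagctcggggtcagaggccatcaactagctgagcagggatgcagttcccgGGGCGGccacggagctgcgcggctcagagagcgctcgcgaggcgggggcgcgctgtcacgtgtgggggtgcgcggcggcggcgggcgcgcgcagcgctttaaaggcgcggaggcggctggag
Chrm3: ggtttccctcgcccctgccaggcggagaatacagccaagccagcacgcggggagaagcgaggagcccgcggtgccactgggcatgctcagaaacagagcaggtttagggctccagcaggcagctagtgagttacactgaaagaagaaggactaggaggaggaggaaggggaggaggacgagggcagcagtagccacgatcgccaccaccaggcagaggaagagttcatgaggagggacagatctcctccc
Of the 10 genes, 9 were matched in the promoter table. Chrm1 was not.

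Kept nuclei numbered 8745 in APP-EX, 9278 in APP-noEX, 6508 in WT-EX and 10213 in WT-noEX, with 65257077 unique molecular identifiers (UMIs, 1 per captured RNA molecule) in APP-EX, 54952245 in APP-noEX, 59842234 in WT-EX and 75711437 in WT-noEX, and any pair of libraries shared 20 to 42 barcodes. Nuclei were clustered without the genes described here, and 18 classes were named from marker genes, so a class name means nuclei like that type. In 13 classes every library had at least 50 nuclei. Levels are UMIs of the gene per 1e+06 UMIs of the class (CPM). Since counts arise near the RNA's 3′ end and within introns of nuclear RNA, levels are compared between classes and libraries and not between genes. Intervals are 95% and cover counting error only. Several things set libraries apart. The lowest UMI total of a barcode was 1199 in APP-EX and 500 to 504 in the other libraries. Malat1, a nuclear RNA, took 3.34% of UMIs in APP-EX, 9.55% in APP-noEX, 6.04% in WT-EX and 3.25% in WT-noEX. Ttr, a choroid plexus gene, had 28 UMIs in APP-EX, 11182 in APP-noEX, 160 in WT-EX and 396 in WT-noEX, and Hbb-bs, a haemoglobin gene, had 45, 1427, 873 and 445 in that order. The part of such RNA in the low values of APP-noEX was not tested. The microglia class of WT-EX had 57 nuclei with a median of 7709 UMIs, against medians of 2673 in APP-EX, 1665.5 in APP-noEX and 1741.5 in WT-noEX. Granule neurons of APP-EX were almost all in 1 cluster (2599 of 2695), and oligodendrocytes of APP-EX and APP-noEX were mostly in clusters of their own (1396 of 1435 and 1396 of 1501).

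**Figure D1:**
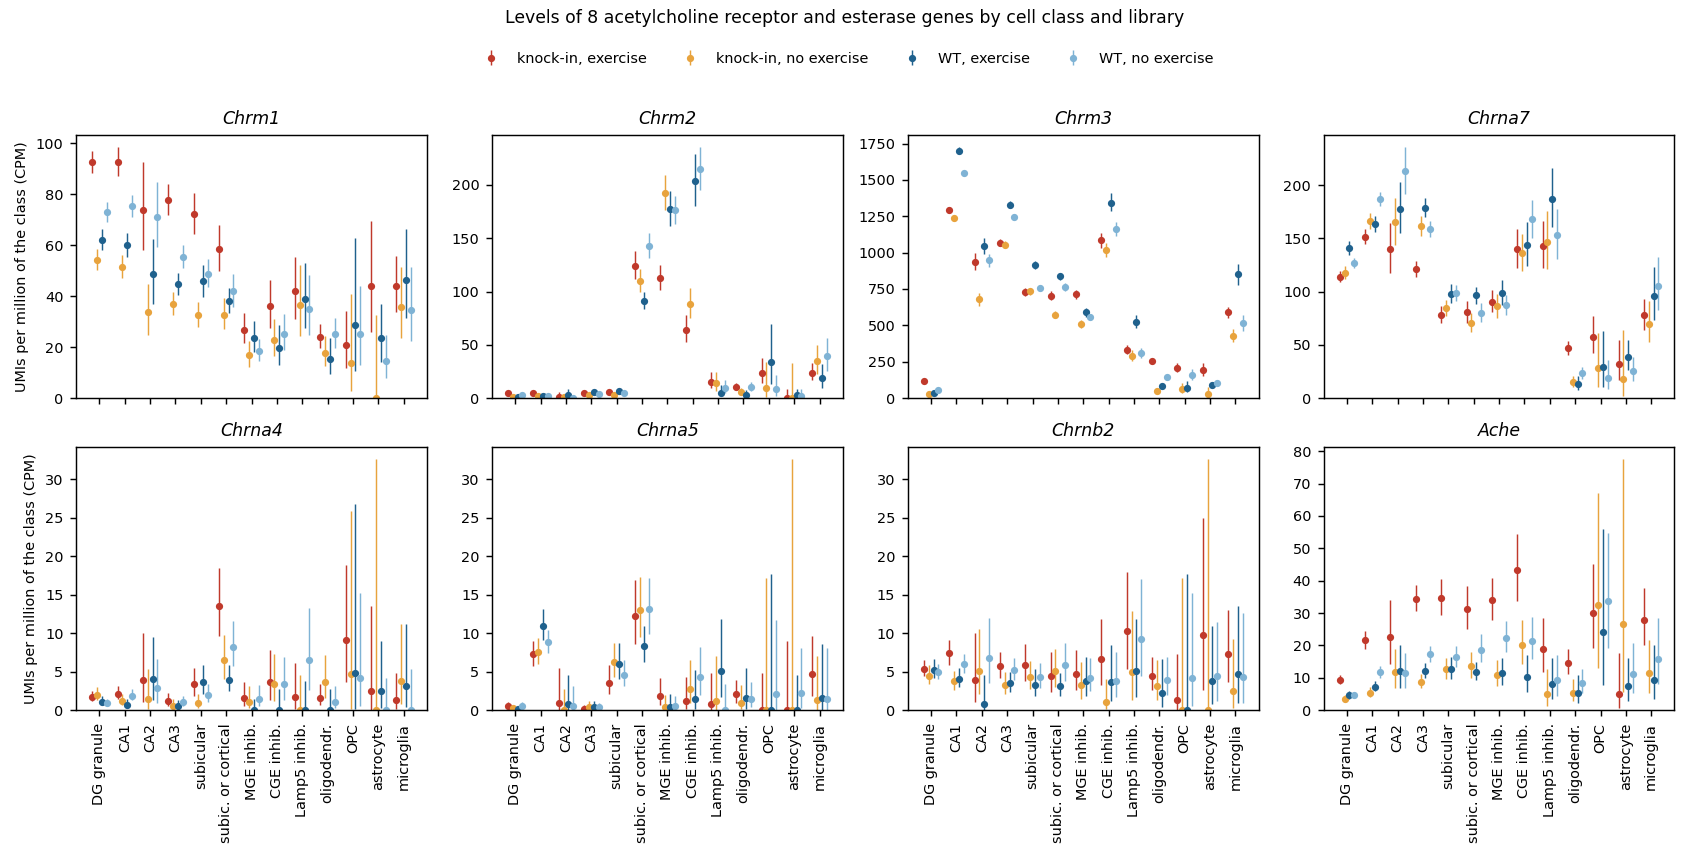
Levels of 8 of the genes (CPM, vertical axes from 0, each panel on its own scale) in 13 cell classes and 4 libraries, with bars for the 95% Poisson interval. Chrm1, Chrm3 and Chrna7 have different orders of classes, with microglia, which also held neuronal marker RNA, ranked among the neuron classes for each. Chrm2 stands in MGE, CGE and subicular or cortical neurons. Ache is highest in APP-EX in all 9 neuron classes, with too few UMIs for a ratio in CA2 and Lamp5 neurons.

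Chrm1, the Gq-coupled receptor that is the main muscarinic receptor of forebrain pyramidal neurons, was highest in CA1 and granule neurons and was highest in APP-EX in all 6 excitatory classes, though in CA2 by less than counting error. The gene lies on chromosome 19, 8663789 to 8683587 (GRCm38, plus strand). In CA1 it stood at 92.8 CPM in APP-EX, 51.5 CPM in APP-noEX, 60.0 CPM in WT-EX and 75.3 CPM in WT-noEX. In granule neurons the levels were 92.7 CPM in APP-EX, 54.3 CPM in APP-noEX, 62.2 CPM in WT-EX and 73.0 CPM in WT-noEX. In both classes APP-EX was the highest library, APP-noEX the lowest, and WT-EX was below WT-noEX. In CA3 the order was the same, with 77.8 CPM in APP-EX, 37.0 CPM in APP-noEX, 44.7 CPM in WT-EX and 55.6 CPM in WT-noEX. The inhibitory classes were lower, with 16.8 to 26.9 CPM over the 4 libraries in MGE neurons (interneurons of the medial ganglionic eminence), 19.8 to 36.0 CPM in CGE neurons (of the caudal eminence) and 35.2 to 42.0 CPM in Lamp5 neurons. Microglia, at 34.7 to 46.5 CPM, ranked among the neuron classes. The summed inhibitory neuron markers in microglia were 619 to 1191 CPM over the libraries, and the part of neuronal RNA in their Chrm1 was not tested. Between libraries the Chrm1 ranges of neighbouring classes overlapped at every step of the order, so that only the ends of it stand apart.

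For exercise in the knock-in, Chrm1 had a positive log2 ratio in all 11 classes measured, past 1.5-fold in 8, with a median of 0.77, and none changed sign under the alternatives run. The background for this comparison was 41.3%, the share of all gene and class pairs past 1.5-fold in either direction. The ratio of APP-EX to APP-noEX was 0.85 in CA1 (interval 0.70 to 1.001), 1.07 in CA3 (0.86 to 1.28) and 0.77 in granule neurons (0.64 to 0.90). For exercise in WT the ratio of WT-EX to WT-noEX was -0.33 in CA1 (-0.47 to -0.19) and -0.32 in CA3 (-0.50 to -0.13), and no excitatory class was past 1.5-fold, against a background of 12.9%. After thinning each nucleus to 1500 UMIs the CA1 ratio was 0.02. For genotype without exercise the ratio of APP-noEX to WT-noEX was -0.55 in CA1 (-0.70 to -0.40) and -0.59 in CA3 (-0.80 to -0.37), where 3 of 11 classes were past 1.5-fold against a background of 23.4%. For genotype with exercise Chrm1 was positive in 10 of 11 classes and past 1.5-fold in 7, against a background of 31.4%, but in MGE and Lamp5 neurons the sign changed with the scaling. These ratios share libraries: a low APP-noEX value raises the ratio for exercise in the knock-in and lowers that for genotype without exercise.

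Within the 3 granule clusters, Chrm1 stood at 93.2 CPM in APP-EX, 66.9 CPM in WT-EX and 90.4 CPM in WT-noEX in the cluster that holds most APP-EX nuclei, where WT-EX had 109 nuclei, WT-noEX 245 and APP-noEX none. In the cluster that holds most nuclei of the other libraries it stood at 88.8 CPM in APP-EX (78 nuclei), 55.7 CPM in APP-noEX, 60.9 CPM in WT-EX and 73.2 CPM in WT-noEX. The difference between APP-EX and APP-noEX was thus present within that shared cluster, while APP-EX and WT-noEX differed little within the first. Both CA1 clusters showed the order of the class, with 88.6 and 95.9 CPM in APP-EX against 50.6 and 52.2 CPM in APP-noEX.

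Chrm3, also Gq-coupled and known in the periphery for smooth muscle and gland responses, was high in some neuron classes and lower in others. Microglia stood at 428 to 850 CPM, above granule neurons. The gene lies on chromosome 13, 9875486 to 10360847 (minus strand), a span of 485.4 kb that also holds an antisense gene, Gm26861, and sense intronic genes, so some of its intronic UMIs are uncertain. In CA1 it stood at 1293 CPM in APP-EX, 1239.9 CPM in APP-noEX, 1701 CPM in WT-EX and 1545 CPM in WT-noEX. In CA3 it stood at 1068 CPM in APP-EX, 1053 CPM in APP-noEX, 1328 CPM in WT-EX and 1243 CPM in WT-noEX. Both knock-in libraries were below both WT libraries in these 2 classes. Granule neurons were at the other end, with 121 CPM in APP-EX, 30.4 CPM in APP-noEX, 35.8 CPM in WT-EX and 52.5 CPM in WT-noEX.

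CA1 was not uniform for Chrm3. One CA1 cluster had 1834 CPM in APP-EX, 1764 CPM in APP-noEX, 2084 CPM in WT-EX and 1992 CPM in WT-noEX, and the other had 546 CPM in APP-EX, 507 CPM in APP-noEX, 558 CPM in WT-EX and 647 CPM in WT-noEX. Chrm3 is among the 10 leading genes of the cluster with the higher level although it was kept out of the clustering, and the ranges of the clusters did not overlap. The cluster with the lower level held 501 nuclei in APP-EX, 513 in APP-noEX, 242 in WT-EX and 545 in WT-noEX. The cluster with the higher level held 622, 873, 766 and 1187 in that order, so the mix differed between libraries. The subicular or cortical class was split likewise, with 912 to 1055 CPM in 1 cluster and 160.1 to 355 CPM in the other.

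In CA1 the log2 ratio for Chrm3 was -0.40 with exercise (APP-EX over WT-EX, interval -0.43 to -0.36) and -0.32 without (APP-noEX over WT-noEX, -0.35 to -0.29). Neither passed 1.5-fold as scaled here, but with exercise the ratio was -0.64 with TMM and -0.65 with median-of-ratios factors, past it. These are ratios of the whole class. Within each CA1 cluster the values of APP-EX and WT-EX given above lay closer together, and the part of the cluster mix was not tested. In CA3 they were -0.31 (-0.35 to -0.27) and -0.24 (-0.28 to -0.20). Between libraries with and without exercise, the log2 ratios of Chrm3 in CA1 as scaled here were 0.06 (APP-EX over APP-noEX) and 0.14 (WT-EX over WT-noEX). TMM factors moved the CA1 ratios by -0.10 and 0.14 in that order. The ratio of APP-EX to APP-noEX changed sign in CA1 and CA3 under some of the alternatives run. Lamp5 neurons stood apart with 333 CPM in APP-EX, 291 CPM in APP-noEX, 524 CPM in WT-EX and 307 CPM in WT-noEX, but the high WT-EX value was not kept under another clustering (ratio of WT-EX to WT-noEX 0.77 as clustered here and -0.06 at resolution 2.0).

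In some classes where Chrm3 is low, neuronal marker RNA was high in the same libraries. The list used here holds 7 CA1 markers but is not particular to CA1: its summed level was 6494 to 9768 CPM over the libraries in Lamp5 neurons and 3118 to 5429 CPM in MGE neurons, against 4629 to 7008 CPM in CA1. In oligodendrocytes Chrm3 stood at 252.5 CPM in APP-EX, 50.4 CPM in APP-noEX, 85.1 CPM in WT-EX and 143 CPM in WT-noEX. The summed level of the list in the same nuclei was 1123 CPM in APP-EX, 434 CPM in APP-noEX, 541 CPM in WT-EX and 743 CPM in WT-noEX, the same order. In granule neurons the sum was 436 CPM in APP-EX, 121.7 CPM in APP-noEX, 161 CPM in WT-EX and 189 CPM in WT-noEX, again in the order of Chrm3. All 7 genes had UMIs in both classes in every library. In OPCs and microglia the orders differed. Chrm3 in OPCs was 208 CPM in APP-EX, 60.5 CPM in APP-noEX, 72.1 CPM in WT-EX and 158 CPM in WT-noEX, where the sum was 920.5 CPM in APP-EX, 339.6 CPM in APP-noEX, 278.7 CPM in WT-EX and 617.7 CPM in WT-noEX. Chrm3 in microglia was 589.5 CPM in APP-EX, 428 CPM in APP-noEX, 850.1 CPM in WT-EX and 513 CPM in WT-noEX, where the sum was 1665 CPM in APP-EX, 2194 CPM in APP-noEX, 2570.3 CPM in WT-EX and 1648 CPM in WT-noEX. APP-noEX was thus lowest in Chrm3 in both classes but not in the sum. The ratio of APP-EX to APP-noEX for Chrm3 was 2.32 in oligodendrocytes (2.04 to 2.62) and 1.99 in granule neurons (1.83 to 2.15), while no other neuron class passed 1.5-fold in this comparison. The part of RNA from other neurons in these levels and differences was not tested. Within the granule cluster of most APP-EX nuclei, Chrm3 was 122 CPM in APP-EX, 115 CPM in WT-EX and 141 CPM in WT-noEX, with no nuclei of APP-noEX. In the cluster that holds most nuclei of the other libraries it was 107 CPM in APP-EX (78 nuclei), 23.7 CPM in APP-noEX, 27.4 CPM in WT-EX and 47.2 CPM in WT-noEX, so APP-EX was the highest library there.

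**Figure D2:**
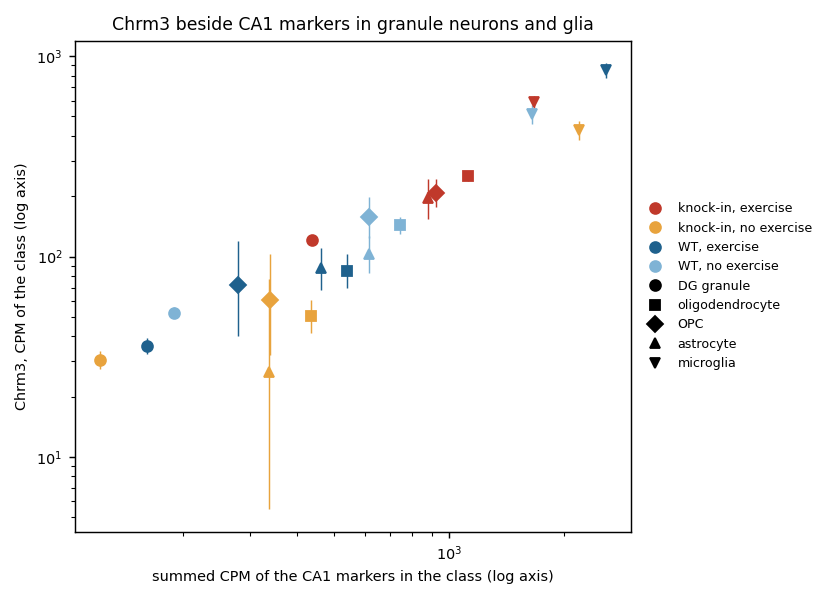
Chrm3 (CPM, log axis, bars for the 95% Poisson interval) against the summed CPM of 7 CA1 markers, a list that is also high in inhibitory neurons (log axis) in granule neurons and 4 glial classes, 1 point per class and library. In granule neurons, oligodendrocytes, OPCs and astrocytes APP-EX is highest on both axes, and the microglia points lie at the upper end, with WT-EX highest.

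Chrm2, the Gi-coupled receptor known on hippocampal interneurons and cholinergic terminals, was found in MGE neurons, in a small part of CGE neurons and in subicular or cortical neurons. The gene lies on chromosome 6, 36388084 to 36528414 (plus strand), and overlaps 9330158H04Rik on the other strand by 2108 bases. MGE neurons had 112.8 CPM in APP-EX, 192 CPM in APP-noEX, 177 CPM in WT-EX and 177 CPM in WT-noEX. APP-EX was alone in being low, and the other 3 libraries lay close together. The summed inhibitory markers of MGE neurons were also lowest in APP-EX. They stood at 4314 CPM in APP-EX, 7724 CPM in APP-noEX, 7378 CPM in WT-EX and 8361 CPM in WT-noEX. Whether the low Chrm2 of APP-EX is separate from this was not tested. For Chrm2 the log2 ratio of APP-EX to APP-noEX was -0.77 (-0.97 to -0.57) and that of APP-EX to WT-EX -0.65 (-0.85 to -0.45). Subicular or cortical neurons had 124 CPM in APP-EX, 109.9 CPM in APP-noEX, 91.3 CPM in WT-EX and 143 CPM in WT-noEX, in both clusters of the class. Pyramidal neurons of CA1, CA2 and CA3, granule neurons and subicular neurons had at most 6.27 CPM in any library. Of MGE nuclei, 37.5% held a Chrm2 UMI in APP-EX, 41.7% in APP-noEX, 49.1% in WT-EX and 48.5% in WT-noEX, at a median of 6710 to 10804.5 UMIs per nucleus. After thinning to 1500 UMIs per nucleus the shares were 14.8% in APP-EX, 18.6% in APP-noEX, 24.3% in WT-EX and 20.6% in WT-noEX, while granule neurons had at most 0.85%.

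In CGE neurons Chrm2 was carried by few nuclei. The class had 64.2 CPM in APP-EX, 88.6 CPM in APP-noEX, 203 CPM in WT-EX and 215 CPM in WT-noEX, and both knock-in libraries were below both WT libraries. Nuclei with at least 5 Chrm2 UMIs numbered 4 of 163 in APP-EX, 8 of 255 in APP-noEX, 6 of 134 in WT-EX and 11 of 238 in WT-noEX. They held 85.98% of the Chrm2 UMIs in APP-EX, 90.5% in APP-noEX, 97.8% in WT-EX and 93.99% in WT-noEX, and the other nuclei stood at 4.64 to 13.7 CPM. So the class ratio of APP-EX to WT-EX, -1.66 (-1.999 to -1.34), rests on 4 against 6 nuclei, and that of APP-noEX to WT-noEX, -1.28 (-1.55 to -1.01), on 8 against 11. With 4000 variable genes in the clustering the second ratio became 2.46. These 29 nuclei, chosen for Chrm2 and so described without a test, were also high in 9330158H04Rik, the gene that overlaps Chrm2 (434 CPM against 0.76 CPM in the other 761), Adgrg6 (323 against 1.83 CPM), Arhgap6 (525 against 22.5 CPM), Meis2 (416 against 20.8 CPM) and Nxph1 (2427 against 168 CPM). Adgrg6 is an adhesion G protein-coupled receptor, Meis2 a homeobox factor, and Nxph1 a neurexin ligand that is also an MGE marker.

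The inhibitory neurons differed by subtype. Among MGE nuclei, those with a Sst UMI and no Pvalb UMI had 1147 CPM of Chrm3 in APP-EX, 793 CPM in APP-noEX, 878 CPM in WT-EX and 902 CPM in WT-noEX. Those with Pvalb and no Sst had 305 CPM in APP-EX, 254 CPM in APP-noEX, 301 CPM in WT-EX and 221 CPM in WT-noEX. Chrna7 followed Chrm3, with 127 to 210 CPM over the libraries in Sst nuclei and 22.1 to 57.0 CPM in Pvalb nuclei, and in neither gene did the ranges overlap. Chrm2 leaned the other way, with 74.4 CPM in APP-EX, 149 CPM in APP-noEX, 190.0 CPM in WT-EX and 128 CPM in WT-noEX in Sst nuclei, and 173 CPM in APP-EX, 272 CPM in APP-noEX, 211 CPM in WT-EX and 194 CPM in WT-noEX in Pvalb nuclei. It was higher in Pvalb nuclei within each library, in WT-EX by less than counting error (intervals 177 to 249 CPM in Pvalb and 155 to 230.0 CPM in Sst nuclei), and the ranges overlap across libraries. Sst marks interneurons that target dendrites and Pvalb mostly those that target cell bodies. The subsets held 43 to 146 nuclei per library.

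**Figure D3:**
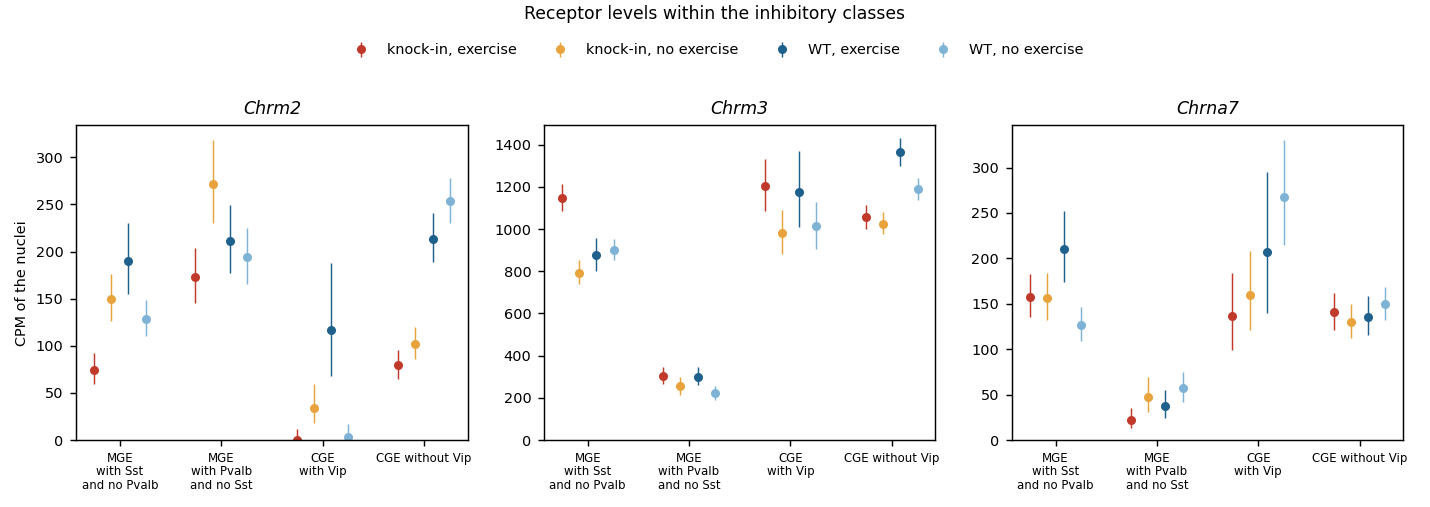
Chrm2, Chrm3 and Chrna7 (CPM, axes from 0, bars for the 95% Poisson interval) in subsets of MGE and CGE nuclei split by UMIs of Sst, Pvalb and Vip, in 4 libraries. Chrm3 and Chrna7 are higher in Sst than in Pvalb nuclei in every library, Chrm2 is higher in Pvalb nuclei (in WT-EX by less than counting error), and CGE nuclei with Vip numbered only 17 to 65 per library.

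Chrm4 and Chrm5 gave almost no counts, 17 and 32 UMIs over all kept nuclei. Chrm4 encodes the second Gi-coupled receptor and Chrm5 the remaining Gq-coupled one. In the annotation the gene models of both hold the coding exon only (chromosome 2, 91927249 to 91928688, and chromosome 2, 112479171 to 112480769), with 0 bases of 3′ untranslated region, whereas RefSeq gives spans of 7647 and 57629 bases. Reads from a 3′ end outside the model would not be counted, so these values do not show that the receptors are absent.

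Chrna7 encodes the subunit of the homomeric alpha7 channel, which passes calcium and is dense in hippocampus. It was present in all neuron classes and in microglia, which had 70.0 to 106 CPM over the libraries. Microglia also held the neuronal marker RNA given above, and the part of such RNA in their Chrna7 was not tested. The gene lies on chromosome 7, 63098692 to 63212569 (minus strand). CA2 had 139.8 CPM in APP-EX, 164.9 CPM in APP-noEX, 178 CPM in WT-EX and 213 CPM in WT-noEX. CA1 had 151 CPM in APP-EX, 166 CPM in APP-noEX, 163 CPM in WT-EX and 187 CPM in WT-noEX. The lowest neuron class was subicular or cortical, with 70.2 to 96.4 CPM, and CA2, CA1, CA3, Lamp5, CGE and granule neurons overlapped at each step of the order. Scaled by the class total, none of the 9 neuron classes passed 1.5-fold in any of the 4 comparisons. The furthest was CA3, with 121 CPM in APP-EX, 161 CPM in APP-noEX, 179 CPM in WT-EX and 158 CPM in WT-noEX, a log2 ratio of -0.56 (-0.68 to -0.45) for APP-EX over WT-EX. This ratio passed 1.5-fold under the other scalings, at -0.76 with TMM factors, -0.78 with median-of-ratios factors and -0.69 without mitochondrial and the 50 highest genes in the total, and at -0.81 after thinning. With TMM factors it also passed in CA2, subicular and Lamp5 neurons, at -0.59, -0.59 and -0.64. Oligodendrocytes had 47.0 CPM in APP-EX, 14.98 CPM in APP-noEX, 12.9 CPM in WT-EX and 23.3 CPM in WT-noEX, beside the marker sums given above for the same nuclei, and the part of neuronal RNA in this was not tested.

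The other nicotinic subunits were sparse. Chrna5, an accessory subunit that raises calcium permeability of alpha4 beta2 channels, was found in CA1, with 7.25 CPM in APP-EX, 7.60 CPM in APP-noEX, 11.004 CPM in WT-EX and 8.86 CPM in WT-noEX, and in subicular or cortical neurons, with 12.2 CPM in APP-EX, 12.96 CPM in APP-noEX, 8.36 CPM in WT-EX and 13.1 CPM in WT-noEX. In subicular or cortical neurons it lay in 1 cluster, which had 18.3 CPM in APP-EX, 23.1 CPM in APP-noEX, 10.4 CPM in WT-EX and 20.97 CPM in WT-noEX, while the other had at most 0.97 CPM. CA3 had 0.12 to 0.44 CPM and granule neurons 0.14 to 0.61 CPM. Chrna5 lies on chromosome 9, 54980880 to 55007779. Chrna4, the alpha subunit of the main heteromeric brain receptor (chromosome 2, 181018380 to 181043546), was highest in subicular or cortical neurons, with 13.6 CPM in APP-EX, 6.48 CPM in APP-noEX, 3.94 CPM in WT-EX and 8.28 CPM in WT-noEX. Chrnb2, its beta partner, stood at 3.75 to 7.42 CPM in CA1, with 7.42 CPM in APP-EX, 3.75 CPM in APP-noEX, 4.08 CPM in WT-EX and 5.95 CPM in WT-noEX. It lies on chromosome 3, 89746195 to 89764632 (minus strand), and its model overlaps Adar on the other strand by 7252 bases. No source used here says whether counting used strand, so its level is uncertain.

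Ache was low in every class, higher in APP-EX than in the other libraries in all 9 neuron classes, and lowest of the neurons in granule neurons. The gene lies on chromosome 5, 137287519 to 137294466 (plus strand), and overlaps a noncoding gene, Gm42456, on the other strand by 1144 bases. CA3 had 34.5 CPM in APP-EX, 8.84 CPM in APP-noEX, 11.97 CPM in WT-EX and 17.3 CPM in WT-noEX. CA1 had 21.6 CPM in APP-EX, 5.44 CPM in APP-noEX, 7.28 CPM in WT-EX and 11.7 CPM in WT-noEX. MGE neurons had 33.9 CPM in APP-EX, 10.9 CPM in APP-noEX, 11.3 CPM in WT-EX and 22.3 CPM in WT-noEX. In these 3 classes WT-noEX was the next highest library, and APP-noEX and WT-EX were low. CGE neurons had 43.2 CPM in APP-EX, 20.2 CPM in APP-noEX, 10.2 CPM in WT-EX and 21.5 CPM in WT-noEX. OPCs, the precursors of oligodendrocytes, had 30.2 CPM in APP-EX, 32.6 CPM in APP-noEX, 24.0 CPM in WT-EX and 33.7 CPM in WT-noEX, on 5 to 23 UMIs, with no order between libraries beyond counting error.

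For exercise in the knock-in, Ache was past 1.5-fold higher in all 9 classes measured, with log2 ratios of 1.10 to 1.99. Those 9 are granule, CA1, CA3, subicular, subicular or cortical, MGE and CGE neurons, oligodendrocytes and microglia. Of all gene and class pairs, 25.8% were past 1.5-fold higher in this comparison. The ratio was 1.99 in CA1 (1.57 to 2.42), 1.96 in CA3 (1.57 to 2.38) and 1.405 in granule neurons (0.92 to 1.91). For genotype with exercise it was past 1.5-fold higher in all 8 classes measured, at 1.03 to 2.08, beside 24.7% of all pairs. For exercise in WT it was negative in all 7, at -1.07 to -0.02 (0.08 for the granule neurons under TMM scaling). It was past 1.5-fold lower in 4, beside 10.1% of all pairs, among them CA1 at -0.69 (-1.08 to -0.30) and MGE neurons at -0.98 (-1.63 to -0.37). For genotype without exercise it was negative in all 7, at -1.10 to -0.09. Within the granule cluster of most APP-EX nuclei, Ache was 9.45 CPM in APP-EX, 8.63 CPM in WT-EX and 9.74 CPM in WT-noEX, on 180, 8 and 14 UMIs and with no nuclei of APP-noEX. In the cluster that holds most nuclei of the other libraries it was 8.38 CPM in APP-EX, on 5 UMIs, 3.41 CPM in APP-noEX, 4.50 CPM in WT-EX and 4.20 CPM in WT-noEX, and the APP-EX interval (2.72 to 19.6 CPM) covered the other values. Both CA1 clusters had 21.6 CPM in APP-EX, against 6.07 and 4.99 CPM in APP-noEX, 7.42 and 7.23 CPM in WT-EX, and 13.9 and 10.6 CPM in WT-noEX.

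**Figure D4:**
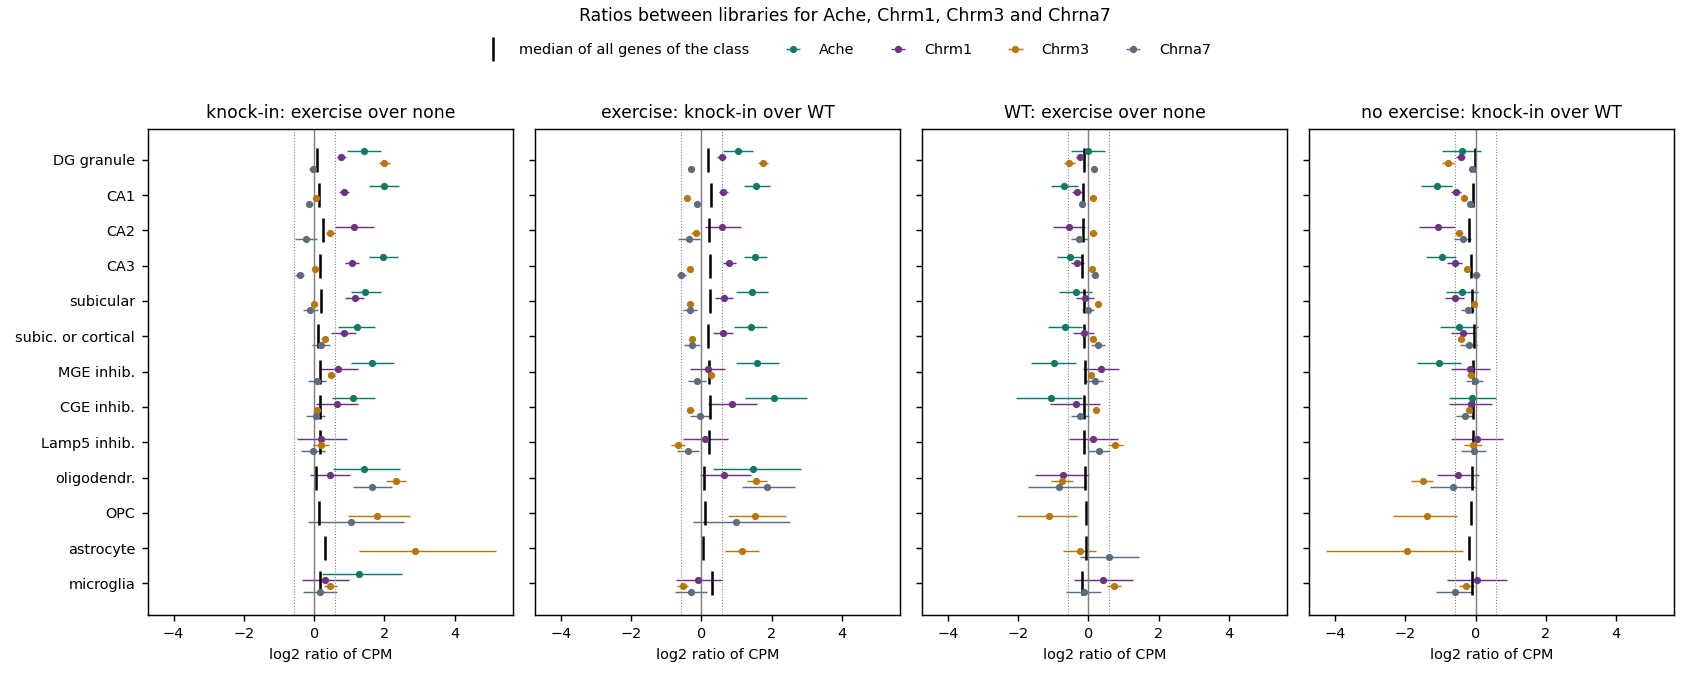
Log2 ratios of CPM for Ache, Chrm1, Chrm3 and Chrna7 in 13 classes and 4 comparisons, where measured, with 95% counting intervals. Dotted lines mark 1.5-fold and black bars the median of all genes of the class; Ache lies to the right in both comparisons that have APP-EX on top, Chrm1 does so in all classes measured only for exercise in the knock-in, and Chrna7 lies within the dotted lines in neurons at this scaling.

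Counted over all 10 genes and 13 classes, a pair of gene and class was measured with at least 50 UMIs over both libraries, which 8 genes reached in some class and Chrm4 and Chrm5 in none. A pair can thus be measured through high counts in either library alone. For exercise in the knock-in, 32 of 61 pairs were past 1.5-fold, 30 higher and 2 lower, where 41.3% of all gene and class pairs were past it, 25.8% higher and 15.5% lower. For genotype with exercise, 32 of 59 were past, 28 higher and 4 lower, against a background of 31.4%, with 24.7% higher and 6.70% lower. For exercise in WT, 15 of 56 were past, 3 higher and 12 lower, against 12.9%, with 2.81% higher and 10.1% lower. For genotype without exercise, 16 of 56 were past, 0 higher and 16 lower, against 23.4%, with 11.5% higher and 11.9% lower. In single classes the background was at most 48.3%, 39.3%, 27.5% and 38.5% in that order of comparisons. The median log2 ratio of the pairs was 0.49, 0.55, -0.12 and -0.35 in the same order of comparisons. The class medians of all genes ranged over 0.06 to 0.30, 0.03 to 0.31, -0.20 to -0.07 and -0.19 to -0.03.

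The split depended on scaling in 2 comparisons. With TMM factors, genotype with exercise had 22 higher and 12 lower, and exercise in WT 6 higher and 8 lower, where 27.3% and 10.7% of all pairs were past. With median-of-ratios factors the splits were 21 and 9, and 6 and 8, beside 27.0% and 10.4%. TMM moved all ratios of a class by -0.30 to 0.01 for genotype with exercise and by 0.02 to 0.27 for exercise in WT. Exercise in the knock-in kept 29 higher and 2 lower under TMM, and genotype without exercise 0 higher and 12 lower, beside 39.99% and 23.2%. Counted in the 9 neuron classes alone, exercise in the knock-in had 22 higher and 2 lower of 48, beside 41.02% of all pairs past. Genotype without exercise had 0 higher and 11 lower of 47, beside 22.2%. In the comparisons that use WT-EX, this count leaves out its microglia. There genotype with exercise had 20 higher and 4 lower of 48, and exercise in WT 2 higher and 8 lower of 47, beside 31.01% and 12.19%.

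Members under 20 kb made 19 of the 32 pairs past 1.5-fold for exercise in the knock-in, 17 of 32 for genotype with exercise, 5 of 15 for exercise in WT and 8 of 16 for genotype without exercise. For exercise in the knock-in, genes under 20 kb had a median log2 ratio of -0.09 over all classes, with 22.2% higher and 29.7% lower. The 3 members under 20 kb, Ache at 6.9 kb, Chrnb2 at 18.4 kb and Chrm1 at 19.8 kb, had 19 of 23 pairs higher, 0 lower and a median of 1.07. Members over 100 kb, Chrna7, Chrm2 and Chrm3, had 10 of 33 higher, 1 lower and a median of 0.18, near the 0.26 of all genes over 100 kb. Of all pairs over 100 kb, 29.2% were higher and 5.95% lower. For genotype without exercise, genes under 20 kb had a median of 0.14, with 23.9% higher and 10.7% lower. The 3 members under 20 kb had 0 higher and 8 lower of 22 with a median of -0.45. In the other comparisons their median had the sign of all genes of that span. For genotype with exercise, genes under 20 kb had a median of 0.32, with 32.7% higher and 8.92% lower. The members had 17 higher and 0 lower of 22 with a median of 0.75. For exercise in WT, genes under 20 kb had a median of -0.24, with 2.95% higher and 18.4% lower. The members had 0 higher and 5 lower of 21 with a median of -0.36. Pairs of 1 gene in several classes share the gene and the libraries, so these are not independent counts.

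**Figure D5:**
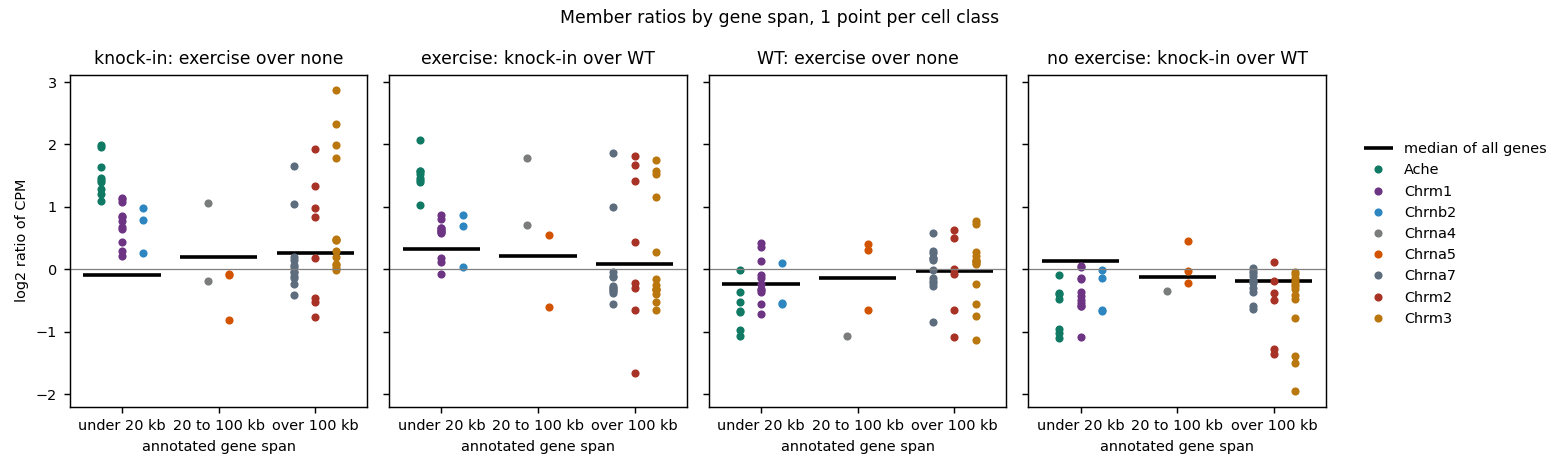
Log2 ratios of the members, 1 point per cell class, by annotated gene span in 4 comparisons, with a black bar for the median of all genes of that span. For exercise in the knock-in, the points of Ache, Chrm1 and Chrnb2 lie above a bar at -0.09, while points of Chrna7, Chrm2 and Chrm3 lie around a bar at 0.26.

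The other genes of the pathway moved unevenly. The 8 chaperones and prototoxins, which help nicotinic receptors fold or bind to them at the membrane, had 4 pairs higher and 35 lower of 67 for exercise in the knock-in, with a median of -0.62, opposite in sign to Ache and Chrm1. Of all gene and class pairs, 25.8% were higher and 15.5% lower. Of 64 pairs for genotype with exercise, 5 were higher and 2 lower, with a median of 0.09, beside 24.7% and 6.70% of all pairs. For exercise in WT 2 were higher and 10 lower of 65, with a median of -0.19, the sign of Ache, beside 2.81% and 10.1% of all pairs. For genotype without exercise 25 were higher and 4 lower of 68, with a median of 0.33, beside 11.5% and 11.9%. Lynx1, a brake on nicotinic receptors, had 23.2 CPM in granule neurons of APP-EX, 62.5 CPM in APP-noEX, 31.5 CPM in WT-EX and 31.4 CPM in WT-noEX, so that APP-noEX was the high library. Ly6h, a prototoxin that holds alpha7 receptors inside the cell, had 181 CPM in CA1 of APP-EX, 318 CPM in APP-noEX, 148 CPM in WT-EX and 250.2 CPM in WT-noEX, and was lower with exercise in both genotypes (log2 ratio -0.82, interval -0.90 to -0.74, for APP-EX over APP-noEX and -0.75, interval -0.84 to -0.67, for WT-EX over WT-noEX). Lypd6, a prototoxin of MGE neurons, was an exception, with 140.0 CPM in APP-EX, 86.4 CPM in APP-noEX, 74.8 CPM in WT-EX and 103 CPM in WT-noEX in that class.

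Bche, the butyrylcholinesterase gene, was highest in oligodendrocytes, with 35.4 CPM in APP-EX, 64.9 CPM in APP-noEX, 64.6 CPM in WT-EX and 59.5 CPM in WT-noEX. Its ratio of APP-EX to APP-noEX was -0.88 there (-1.22 to -0.54), opposite in sign to that of Ache. In granule neurons Bche had 1.06 CPM in APP-EX, 10.7 CPM in APP-noEX, 4.84 CPM in WT-EX and 4.82 CPM in WT-noEX. The summed oligodendrocyte markers there were 481 CPM in APP-EX, 471 CPM in APP-noEX, 401 CPM in WT-EX and 413 CPM in WT-noEX. The part of oligodendrocyte RNA in the Bche values of granule neurons was not tested. Prima1, which anchors acetylcholinesterase in the membrane, was also highest in oligodendrocytes, with 80.1 CPM in APP-EX, 108.1 CPM in APP-noEX, 116 CPM in WT-EX and 77.5 CPM in WT-noEX. Colq, the collagen tail of the muscle form, had 84 UMIs in all.

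None of the 12 other nicotinic subunit genes was measured in any pair, and their highest class medians were at most 1.18 CPM. Of the genes that make and load acetylcholine, Chat had 8 UMIs, Slc18a3 had 1 and Slc5a7 had 74 over all kept nuclei. The cell bodies of the septal cholinergic neurons lie outside the hippocampus. Of the 11 Gq signalling genes, 44 pairs were higher and 1 lower of 105 for exercise in the knock-in, beside the background of 25.8% and 15.5%. Gnaq, the Gq alpha subunit, did not pass 1.5-fold in CA1, with 390 CPM in APP-EX, 381 CPM in APP-noEX, 495 CPM in WT-EX and 473 CPM in WT-noEX. Gna11, its close relative, had 27.8 CPM in APP-EX, 13.5 CPM in APP-noEX, 17.7 CPM in WT-EX and 22.5 CPM in WT-noEX in CA1. Of the 9 Gi signalling genes, 43 pairs were higher and 19 lower of 105 for exercise in the knock-in, beside the same background of 25.8% and 15.5%. Kcnj9, a subunit of the potassium channels that Gi-coupled receptors open, had 53.1 CPM in APP-EX, 20.4 CPM in APP-noEX, 20.9 CPM in WT-EX and 26.2 CPM in WT-noEX in CA1, the order of Ache and Chrm1. Its partner Kcnj6 had 521 CPM in APP-EX, 355 CPM in APP-noEX, 455 CPM in WT-EX and 405 CPM in WT-noEX there.

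The genes whose levels were most like a member's, over 52 sums of 13 classes and 4 libraries that share libraries and depth, were Rnf165 for Chrm1 (Pearson r 0.94 of log2(CPM + 1)), Wnt5b for Chrm2 (0.84), St8sia5 for Chrm3 (0.89), Klhl29 for Chrna7 (0.92), Map3k12 for Chrnb2 (0.78) and Smarcd3 for Ache (0.75), among 8858 or 8859 candidates. These values describe likeness of pattern only. Fewer nuclei of a subtype in a class and less RNA per nucleus cannot be told apart in class sums.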

How the data were processed

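Nuclei came from snap-frozen hippocampus and libraries from the 10x Chromium 3′ v3.1 kit, per the labels' protocols. The deposited values are counts, whole UMIs of each gene in each barcode, which the authors did not normalize. They came from Cell Ranger 5.0.1 per the file headers, or Cell Ranger 3.1.0 with build mm10 per the submitters' processing notes. How intronic and antisense reads were treated is not given in the sources used. Of 32285 gene identifiers, 32158 matched GENCODE M21 (GRCm38).

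From the deposited counts, nuclei were kept that had 500 genes or more, 1000 UMIs or more and less than 5% of UMIs from mitochondrial genes. The highest-scoring likely doublets (5.51% to 8.98% of a library) were left out. Clustering (scanpy 1.11.5; log values, variable genes without the genes described here and their pathway lists, Leiden, no integration) gave 31 clusters, 24 of them named from marker genes. The Lamp5 class scored close to the MGE class. UMIs were summed per class and library. A pair of gene and class was compared at 50 UMIs or more over both libraries, and called past 1.5-fold in either direction. Levels carry exact Poisson, ratios exact conditional binomial and shares Clopper-Pearson 95% intervals, for counting error only. Ratios are on the log2 scale, of CPM with no pseudocount. Total UMIs per deposited library were 64158446 to 91676884. The ratio and call rule were tested on simulated data. The genes, lists and markers were chosen with earlier results of these data known. All 10 members are named, and other genes come from the lists; those given values were picked from the lists after their values were seen. The genes most like a member are the first by correlation among genes of at least 20 CPM in some class of every library. The gene most like Chrna5 is not reported here. Alternatives were TMM (edgeR 4.0.16) and median-of-ratios factors (as in DESeq2), other UMI minimums, thinning, other filters and other clusterings. In the other clusterings each cluster took the class that most of its nuclei have here, a choice made after seeing the data. The series' open-chromatin assay was not used here.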

Additional observations from a re-analysis of the deposited data

Results flagged for a closer look

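In 9 pairs of gene and class the exercise ratio was past 1.5-fold in opposite directions in the knock-in and in WT, with both counting intervals clear of 0. The share of all gene and class pairs that meet this rule was not counted, so whether 9 is many is not known. Taken singly, 25.8% of all pairs were past 1.5-fold higher in the knock-in and 10.1% lower in WT. With 1 library per group the difference between genotypes was not tested. APP-EX is the high library in all 9, and APP-noEX or WT-EX the low ones.

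Ache accounted for 4 of them. Its log2 ratio was 1.99 in the knock-in and -0.69 in WT in CA1, 1.63 and -0.98 in MGE neurons, 1.10 and -1.07 in CGE neurons, and 1.21 and -0.67 in subicular or cortical neurons. The knock-in ratios stayed past 1.5-fold under all alternatives that gave a value, while the WT ratio in subicular or cortical neurons did so under 4 of 10. Chrna4 in subicular or cortical neurons had 1.07 in the knock-in and -1.07 in WT, on 23 to 40 UMIs per library.

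The other 4 were in classes where the gene is low and summed markers of other neurons differed in the same directions. Chrm3 had 2.32 in the knock-in and -0.75 in WT in oligodendrocytes, and 1.79 and -1.13 in OPCs, where 2 other ways of filtering nuclei turned both signs (to between -0.67 and -0.57 in the knock-in and between 0.39 and 0.72 in WT). Chrna7 in oligodendrocytes had 1.65 in the knock-in and -0.85 in WT. All 7 genes of the CA1 marker list, which is high in inhibitory neurons too, had UMIs in OPCs of every library, and their sum was 920.5 CPM in APP-EX, 339.6 CPM in APP-noEX, 278.7 CPM in WT-EX and 617.7 CPM in WT-noEX. Chrm2 in granule neurons had 1.93 in the knock-in and -1.09 in WT, at 4.59 CPM in APP-EX, 1.20 CPM in APP-noEX, 1.45 CPM in WT-EX and 3.08 CPM in WT-noEX. The summed inhibitory markers in granule neurons were 228 CPM in APP-EX, 106.3 CPM in APP-noEX, 91.97 CPM in WT-EX and 141 CPM in WT-noEX. Their part in these ratios was not tested.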

How the results depend on the processing

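No paired analysis was possible because each group has 1 library. For the same reason no replicate could be left out, and depth limits the sparse genes: Chrna4, Chrna5 and Chrnb2 were measured in at most 4 classes per comparison, Chrm4 and Chrm5 in none. The counts of pairs past 1.5-fold followed the UMI minimum and thinning, which change how many pairs are measured. With at least 200 UMIs, 13 of 33 pairs were past for exercise in the knock-in (32 in the main count), 15 of 34 for genotype with exercise (32), 5 of 31 for exercise in WT (15) and 7 of 31 for genotype without exercise (16), where 36.7%, 25.6%, 6.35% and 17.2% of all gene and class pairs were past. With at least 1 UMI in each library the counts were 57 of 100, 58 of 99, 35 of 96 and 37 of 97 in that order (50.7%, 43.6%, 30.4% and 37.6% of all pairs), and after thinning nuclei to 1500 UMIs they were 12 of 30, 13 of 28, 5 of 30 and 9 of 32 (41.1%, 31.4%, 13.03% and 25.2%). Genotype without exercise also fell to 10 when mitochondrial and the 50 highest genes left the total (22.7% of all pairs), and to 10 with at least 1000 genes per nucleus (23.5%). TMM scaling kept 80 of the 95 ratios past 1.5-fold and median-of-ratios scaling 77. CA2 joined CA3 in the other clusterings and has no value there.

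With no doublets left out, Chrm3 ratios changed sign in OPCs, to 0.12 for genotype without exercise, -0.95 for genotype with exercise, 0.39 for exercise in WT and -0.67 for exercise in the knock-in, and in astrocytes, to 0.13 for genotype without exercise, -0.31 for genotype with exercise and -0.63 for exercise in the knock-in. With at least 1000 genes per nucleus, Chrm3 in OPCs had 0.12, -1.16, 0.72 and -0.57 in the order given for OPCs. Chrm3 in Lamp5 neurons had 0.27 for genotype with exercise after thinning and 0.12 at resolution 2.0, where exercise in WT had -0.0575. Chrm2 in CGE neurons had 2.46 for genotype without exercise with 4000 variable genes. The cause was not tested.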
